A study of Mus musculus with 6 samples.

Results

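The inorganic ion solute carriers are membrane proteins that move bicarbonate, protons, sodium, chloride, sulfate, phosphate, calcium, magnesium and zinc across cell and organelle membranes. They were taken here as the genes of the authors' deposited table whose symbol belongs to 1 of 10 solute carrier (Slc) families, numbered 4, 8, 9, 12, 20, 24, 26, 30, 39 and 41. Of 18421 genes in that table, 73 met this rule. The rule leaves out 5 carriers of the distal nephron, Slc4a1, Slc4a9, Slc12a1, Slc12a3 and Slc26a4. It keeps 3 genes named after a carrier that encode proteins binding one, Slc9a3r1, Slc9a3r2 and Slc4a1ap, so 70 of the 73 are carriers. The mouse annotation holds 79 genes that match the rule, and the other 6, Slc24a2, Slc26a5, Slc26a6, Slc30a10, Slc9c1 and the pseudogene Slc39a1-ps, were not analysed here.

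The samples were whole kidneys of 3 Dkk3-/- mice (the Dkk3 knockout) and 3 C57Bl/6 mice (Dkk3 wild type), with 1 library a mouse and 6 in all. Every mouse carried a unilateral ureteral obstruction (UUO) for 7 days, an operation that closes 1 ureter, and both groups are labelled with a C57Bl/6 background. Unobstructed kidneys were not analysed here, and the labels do not give age, sex, or how the knockout allele was made. Dkk3 encodes a secreted protein of the dickkopf family, and the comparison asked which transcripts differ in the obstructed kidney when it is missing.

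In the kidney, ion carriers work in series with the sodium pump. In the proximal tubule, sodium-proton exchange at the luminal side and sodium-bicarbonate exit at the blood side together reclaim filtered bicarbonate, and further along the nephron other carriers set chloride, acid, calcium and magnesium balance. Zinc carriers come in opposed families, SLC30 moving zinc out of the cytosol and SLC39 moving it in, and most cells use both.

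The deposited table gives 1 log2 fold change, 1 average level and 1 test result per gene, so values per mouse, library depth and the spread between mice were not analysed here. Log2 fold changes are given as knockout over wild type, the direction in which the deleted gene is negative: Dkk3 stood at -4.43 (approximate standard error 0.25, adjusted p = 2.98e-67, edgeR's likelihood-ratio test) in the authors' deposited table. Levels are the authors' average depth-scaled counts (CPM, as edgeR defines them) over both genotypes. To set genes side by side, this average was divided by the length of annotated exon in kilobases. Calls were made where the adjusted p lay below 0.05. Each interval is an approximate 95% interval, the log2 fold change with 1.96 standard errors either way, where the error was derived from the fold change and the authors' test score.

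The carriers spanned from barely detected genes to major transcripts. The most abundant per length was Slc9a3r1, the scaffold that holds the proximal sodium-proton exchanger in the brush border, at 120.0 CPM per kb of exon. Slc4a4, the sodium-bicarbonate cotransporter of the proximal tubule's blood side, came next at 47.6 CPM per kb (average 515 CPM, the highest before dividing by length). The zinc importer gene Slc39a1 followed at 46.1 CPM per kb, but 21.8% of its distinct stretches of 50 nt, the read length, also occur in its own pseudogene. An average of 1 CPM or more was reached by 57 genes. The other 16 lay between 0.125 and 0.921 CPM, among them carriers best known from brain, pancreatic islet, gut, stomach or sperm.

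**Figure D1:**
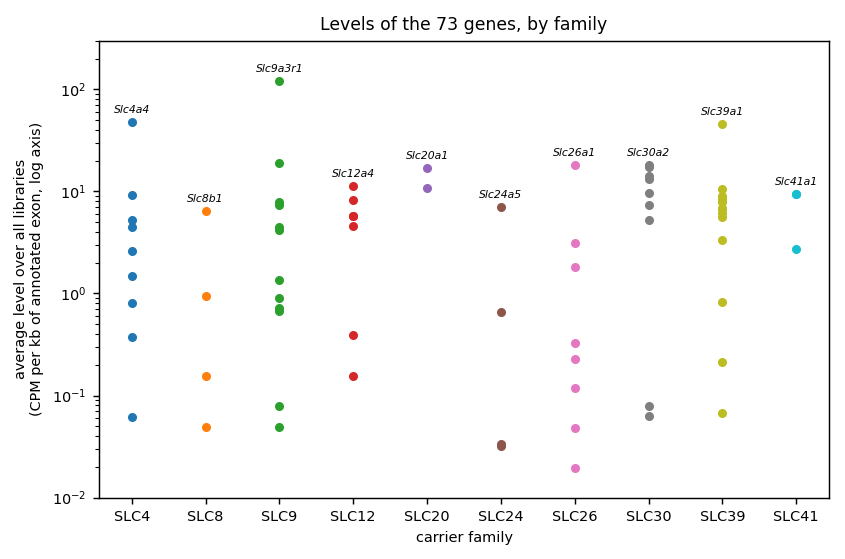
Average level of each of the 73 genes over all 6 libraries, in CPM per kb of annotated exon on a log axis, by carrier family; each point is 1 gene and the most abundant gene of each family is named. Slc9a3r1 at 120.0 and Slc4a4 at 47.6 CPM per kb stand highest.

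None of the 73 genes that met the rule was called. Over all genes of the authors' deposited table the share called was 2.06%, or 379 of 18421, with 215 on the higher and 164 on the lower side. The smallest adjusted p among the 73 was 0.142 (edgeR's likelihood-ratio test), for Slc24a1. At an unadjusted p under 0.05 there were 5 members, or 6.85%, against 10.6% of all genes. These 5 were Slc9a2, Slc9a4 and Slc8a2 on the lower side and Slc24a1 and Slc39a2 on the higher side, and 3 of them averaged under 1 CPM. Among genes at 1 CPM or more, 2 of 57 members (3.51%) reached that unadjusted p against 11.1% of genes. For scale, the other 288 Slc rows of the authors' deposited table held 11 called genes, 3 higher and 8 lower, and 50 at an unadjusted p under 0.05. They include the 5 distal carriers that the rule leaves out, of which Slc26a4 was called.

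The sizes were small as well. Among the 57 members at 1 CPM or more, which include the 3 binding-protein genes, the log2 fold change ran from -0.55 to 0.41, with a median of -0.05, beside a median of 0.01 over the 14319 genes at that level. The median size regardless of sign was 0.12, close to the 0.11 of those genes. Below 0 lay 36 of the 57 (63.2%), against 47.3% of genes at 1 CPM or more and 65.7% of the 236 other Slc rows at that level. The approximate standard error of the 57 had a median of 0.15 and a range of 0.11 to 0.49. For 40 of the 57 the interval lay wholly within a 1.5-fold change either way (a log2 fold change of 0.585), a share of 70.2% against 71.5% of genes at 1 CPM or more. The other 17, which are named with their families, had intervals that reach past 1.5-fold, and a change of that size is not settled for them by these data.

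**Figure D2:**
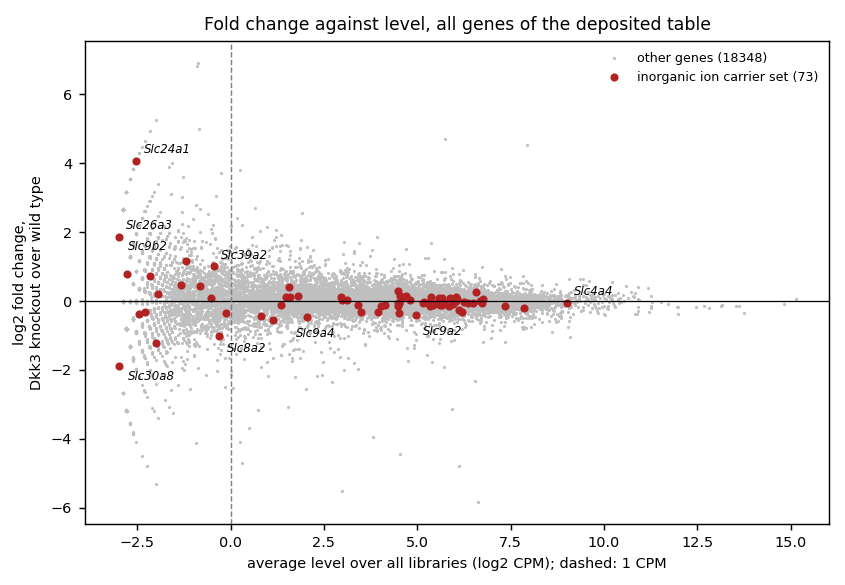
Log2 fold change of knockout over wild type (vertical) against average level in log2 CPM (horizontal) for all 18421 genes of the authors' deposited table, with the 73 genes of the carrier set in red. The red points at 1 CPM or more lie between -0.55 and 0.41, and the wide values, such as 4.08 for Slc24a1, are on the left of the dashed line at 1 CPM.

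The widest values among the carriers came from the scarcest transcripts. Slc24a1, the potassium-dependent sodium-calcium exchanger of retinal rods, had a log2 fold change of 4.08 (SE 1.47) and averaged 0.173 CPM in the authors' deposited table. Slc26a3, a chloride-bicarbonate exchanger of the gut, was at 1.87 and Slc30a8, the zinc carrier of insulin granules, at -1.87 in the authors' deposited table, each at 0.125 CPM. Those are values of the table's lowest step: all 643 genes at that level had a log2 fold change of 1.87 to 1.88 in size, in one direction or the other. No direction was read from such values. Nor was one read from Slc26a9 of stomach and airway (-1.22 at 0.249 CPM), the synaptic vesicle zinc carrier gene Slc30a3 (0.72 at 0.223 CPM) and Slc24a4 (0.77 at 0.145 CPM) in the authors' deposited table. The remaining genes under 1 CPM were Slc4a10, Slc8a2, Slc8a3, Slc9b1, Slc9b2, Slc12a8, Slc26a8, Slc26a10, Slc39a2 and Slc39a12.

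Sodium-proton exchangers of the SLC9 family held the only members at 1 CPM or more with an unadjusted p under 0.05. Slc9a2, an exchanger of the luminal membrane that in the kidney is found in the thick ascending limb and distal tubule, averaged 31.1 CPM. Its log2 fold change was -0.39 (SE 0.16, interval -0.71 to -0.08, p = 0.0138, adjusted p = 0.242, edgeR's likelihood-ratio test) in the authors' deposited table. Slc9a4, an exchanger of the blood-facing membrane, was at -0.47 (SE 0.24, p = 0.0470, adjusted p = 0.454, edgeR's likelihood-ratio test) in the authors' deposited table, at 4.11 CPM. Exons of antisense genes cover 21.3% of the exon bases of Slc9a4, and the use of strand is not given in the sources used here, so its level is uncertain. Neither gene was called. Both lie next to each other on the plus strand of chromosome 1 (GRCm38), Slc9a4 at 40580081 to 40630725 and Slc9a2 at 40680574 to 40769273, with 49.8 kb between them.

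Slc9a3, the main exchanger of the proximal brush border, averaged 23.0 CPM and stood at -0.33 (SE 0.20, adjusted p = 0.609, edgeR's likelihood-ratio test) in the authors' deposited table, and its interval of -0.73 to 0.06 includes 0. Slc9a8, an exchanger of the Golgi that also reaches the proximal brush border, was at -0.26 (SE 0.17), and its interval reached past 1.5-fold too. The scaffold gene Slc9a3r1 was at -0.21 (SE 0.14, interval -0.48 to 0.07) and its relative Slc9a3r2 at 0.10 (SE 0.15) in the authors' deposited table. Slc9a7 and Slc9a9, exchangers of the Golgi network and endosomes, stood at 0.13 and 0.10 with intervals that reach past 1.5-fold, as had the mainly neuronal Slc9a5 at 0.15. Slc9b2 had a log2 fold change of 1.16 (SE 0.61, p = 0.0560, edgeR's likelihood-ratio test) at 0.434 CPM and Slc9b1, best known from sperm, -0.37 at 0.183 CPM in the authors' deposited table. Across all 13 genes of the family 8 were below 0, and the median log2 fold change was -0.14.

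Genes taken as scaffold and trafficking partners of Slc9a3, not all of them brush border proteins, held no call among 8. Of the 8, 3 (37.5%) had an unadjusted p under 0.05, all on the lower side, against 10.6% of all genes. The median log2 fold change of the 8 was -0.19. The smallest p belonged to Dpp4, a brush border peptidase found in complex with the exchanger, at -0.35 (SE 0.13, adjusted p = 0.171, edgeR's likelihood-ratio test) in the authors' deposited table. Ppp1r1a, a protein phosphatase inhibitor on the same list, followed at -0.32 (SE 0.14, adjusted p = 0.341, edgeR's likelihood-ratio test) in the authors' deposited table. The scaffold gene Pdzk1 was at -0.38 (SE 0.18, adjusted p = 0.425, edgeR's likelihood-ratio test).

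Bicarbonate transporters of the SLC4 family that the rule keeps were close to 0 where they were abundant. Slc4a1 and Slc4a9, which the rule leaves out, are given with the carbonic anhydrases. Slc4a4 (chromosome 5, from 88886818, GRCm38) stood at -0.04 (SE 0.18, adjusted p = 0.986, edgeR's likelihood-ratio test) in the authors' deposited table, and its interval of -0.40 to 0.31 lay within 1.5-fold either way. Slc4a2, the chloride-bicarbonate exchanger present in most epithelia, was at -0.04 (SE 0.11, interval -0.26 to 0.19) and averaged 76.8 CPM in the authors' deposited table. Slc4a2 has 12.1% of its stretches of 50 nt in other genes, mainly the antisense gene Fastk. The sodium-bicarbonate cotransporter Slc4a7 (-0.06), the exchanger Slc4a3 (-0.07), the sodium-driven chloride-bicarbonate exchanger Slc4a8 of intercalated cells (-0.12) and Slc4a11 (0.16) also had intervals within 1.5-fold. Slc4a1ap, which encodes a protein that binds the anion exchanger Slc4a1, was at 0.11 (SE 0.13) in the authors' deposited table. Slc4a5, a sodium-bicarbonate cotransporter of low renal abundance at 2.17 CPM, had the lowest value of the SLC4 members that the rule keeps. Its log2 fold change was -0.55 (SE 0.31, interval -1.15 to 0.05, adjusted p = 0.556, edgeR's likelihood-ratio test). Slc4a10, mainly a gene of the brain, was at 0.47 (SE 0.55) at 0.396 CPM in the authors' deposited table.

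Carbonic anhydrases with enzyme activity supply bicarbonate and protons to these carriers. Of 11 genes of this family measured, not all of them active enzymes, 1 was called: Car14, a membrane-bound enzyme of the proximal tubule. Car14 fell by 0.87 on the log2 scale (SE 0.20, average 19.4 CPM, adjusted p = 0.00142, edgeR's likelihood-ratio test) in the authors' deposited table. The call ended when the likelihood-ratio score was referred to an F distribution (14 denominator degrees of freedom). Car12, the membrane-bound enzyme of the blood side, was at -0.40 (SE 0.15, adjusted p = 0.170, edgeR's likelihood-ratio test) in the authors' deposited table. On the higher side Car11 stood at 0.54 (SE 0.21, adjusted p = 0.212, edgeR's likelihood-ratio test). The median of the 11, with Car8 and Car11 included, was -0.15. Among the distal carriers that the rule leaves out, the chloride-bicarbonate exchanger Slc26a4 was called, at -1.11 (SE 0.18, adjusted p = 5.08e-07, edgeR's likelihood-ratio test) in the authors' deposited table. The anion exchanger Slc4a1 stood at -1.46 (SE 0.47, adjusted p = 0.0782), Slc4a9 at -0.35, the sodium-potassium-chloride cotransporter Slc12a1 at -0.32 and the sodium-chloride cotransporter Slc12a3 at 0.02.

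Anion exchangers of the SLC26 family, without Slc26a4, had the lowest median of the 10 families. It was -0.32 over 8 genes, and all 4 members at 1 CPM or more were below 0. Slc26a11, a chloride and sulfate carrier of intercalated cells, averaged 11.2 CPM and had the smallest p, with a log2 fold change of -0.32 (SE 0.17, interval -0.65 to 0.01, p = 0.0587, adjusted p = 0.507, edgeR's likelihood-ratio test) in the authors' deposited table. Slc26a1, the sulfate and oxalate exchanger on the blood side of the proximal tubule, averaged 73.9 CPM and stood at -0.31 (SE 0.18, interval -0.67 to 0.05) in the authors' deposited table. Slc26a7, found on the blood side of acid-secreting intercalated cells, was at -0.44 (SE 0.31) at 1.76 CPM, and Slc26a2, a sulfate carrier of most tissues, at -0.15 (SE 0.15). For Slc26a2 alone among these 4 the interval stayed within 1.5-fold. Slc26a8, known from sperm, was at 0.43 and Slc26a10 at -0.35 in the authors' deposited table, both under 1 CPM. None of these 8 SLC26 members reached an unadjusted p under 0.05. Slc26a4, which the rule leaves out, was called, as given with the carbonic anhydrases.

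Cation-chloride cotransporters of the SLC12 family that the rule keeps lay close to 0 as well. Slc12a7, a potassium-chloride cotransporter, averaged 106 CPM and stood at -0.05 (SE 0.12, interval -0.29 to 0.20) in the authors' deposited table. Slc12a2, the sodium-potassium-chloride cotransporter of the blood-facing membrane of secretory cells, was at -0.09 (SE 0.11, interval -0.31 to 0.13). The potassium-chloride cotransporter Slc12a4 was at 0.10 (SE 0.12) and the family member Slc12a9 at 0.15 (SE 0.14) in the authors' deposited table. The neuronal cotransporter Slc12a5 had the highest value of all members at 1 CPM or more, 0.41 (SE 0.28, interval -0.14 to 0.95, adjusted p = 0.718, edgeR's likelihood-ratio test) at 2.94 CPM, and Slc12a8 was at 0.08 (SE 0.45) at 0.693 CPM in the authors' deposited table. The kinases and adaptors that switch these cotransporters on and off, the WNK pathway, held no called gene among 12 and none at an unadjusted p under 0.05, though 11 of the 12 were below 0 with a median of -0.18. The smallest p were those of the kinase genes Sgk1 at -0.57 (SE 0.31, adjusted p = 0.540) and Stk39 at -0.22 (SE 0.12, adjusted p = 0.572, edgeR's likelihood-ratio test) in the authors' deposited table.

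Phosphate, calcium and magnesium carriers showed no called member. Slc20a1, a sodium-phosphate cotransporter found in most cells, averaged 94.9 CPM and stood at 0.25 (SE 0.20, interval -0.14 to 0.64, adjusted p = 0.757, edgeR's likelihood-ratio test) in the authors' deposited table. Slc20a1 has 9.46% of its stretches of 50 nt in antisense genes. The other member of the family, Slc20a2, was at 0.05 (SE 0.11, interval -0.17 to 0.28) at 67.1 CPM. Of 7 genes of renal phosphate handling outside the family none was called. Kl, the co-receptor for the phosphate hormone Fgf23, was at -0.50 (SE 0.17, adjusted p = 0.107) and Slc34a1, the main phosphate cotransporter of the proximal brush border, at -0.41 (SE 0.26, adjusted p = 0.663, edgeR's likelihood-ratio test) in the authors' deposited table.

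Among the calcium exchangers, Slc8a1, which carries calcium out of distal tubule cells, averaged 17.7 CPM and stood at -0.13 (SE 0.16, interval -0.43 to 0.18, adjusted p = 0.889, edgeR's likelihood-ratio test) in the authors' deposited table. Slc8b1, the sodium-calcium exchanger of mitochondria, was at 0.28 (SE 0.16, interval -0.03 to 0.59). Slc8a2, mainly a gene of the brain, was at -1.01 (SE 0.46, p = 0.0285, adjusted p = 0.362, edgeR's likelihood-ratio test) at 0.809 CPM in the authors' deposited table. It was the 1 member on chromosome 7, the chromosome of Dkk3, at 96.0 Mb from that gene. Slc8a3 was at 0.21 (SE 0.84) at 0.259 CPM. In the SLC24 family Slc24a3 stood at 0.12 (SE 0.27, interval -0.40 to 0.65) and the pigment-cell exchanger Slc24a5 at -0.15 (SE 0.16) in the authors' deposited table. Exons of the antisense gene Myef2 cover 39.5% of the exon bases of Slc24a5, so its level of 16.3 CPM is uncertain. Of 8 genes of calcium entry, buffering and exit, 1 was called: the calcium buffer gene Calb1 of the distal tubule fell by 0.85 on the log2 scale (SE 0.24, adjusted p = 0.0277, edgeR's likelihood-ratio test) in the authors' deposited table. That call too ended with the F distribution. The calcium-sensing receptor gene Casr was at -0.52 (SE 0.18, adjusted p = 0.127, edgeR's likelihood-ratio test) in the authors' deposited table.

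All 3 magnesium carriers of the SLC41 family had intervals within 1.5-fold. Slc41a1, a sodium-magnesium exchanger, stood at -0.02 (SE 0.12), Slc41a2 at -0.12 (SE 0.13) and Slc41a3, which is enriched in the distal convoluted tubule, at 0.04 (SE 0.22) in the authors' deposited table. Of 8 other genes of magnesium handling none was called and none had an unadjusted p under 0.05. The smallest p were those of the magnesium channel gene Trpm6, at 0.28 (SE 0.15), and of Cnnm1, at -0.34 (SE 0.24), in the authors' deposited table.

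Zinc carriers lay close to 0, with a median size of log2 fold change, regardless of sign, of 0.05 over those at 1 CPM or more. Over all genes at that level this median was 0.11. Of 23 zinc carriers, 19 averaged 1 CPM or more. Intervals lay within 1.5-fold for 17 of these 19 (89.5%), against 71.5% of genes at that level. The median standard error of the 19 was 0.13, against 0.15 for genes at that level. Log2 fold changes of the 19 ran from -0.31 to 0.13. Among the exporters and vesicle loaders of the SLC30 family, Slc30a9 of mitochondria averaged 163 CPM and stood at -0.13 (SE 0.12) in the authors' deposited table. Slc30a1, the exporter of the plasma membrane, averaged 90.7 CPM and was at -0.06 (SE 0.15, interval -0.35 to 0.23, adjusted p = 0.965, edgeR's likelihood-ratio test) in the authors' deposited table. The Golgi carriers Slc30a5, Slc30a6 and Slc30a7 had intervals of -0.23 to 0.24, -0.32 to 0.21 and -0.14 to 0.30, the vesicle carrier Slc30a4 of -0.27 to 0.17, and Slc30a2 of -0.31 to 0.31. Slc30a7 has 15.3% of its stretches of 50 nt in other genes, mainly antisense ones, and Slc30a1 8.01%, in an antisense gene.

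The importers of the SLC39 family followed. Slc39a14 and Slc39a8, which also carry manganese, stood at 0.13 (SE 0.15) and -0.11 (SE 0.14) in the authors' deposited table. Slc39a1, Slc39a3, Slc39a6, Slc39a9, Slc39a10, Slc39a11 and Slc39a13 ranged from -0.12 (Slc39a10) to 0.13 (Slc39a13), each with an interval within 1.5-fold. Slc39a7, which releases zinc from the endoplasmic reticulum, was at 0.03 (SE 0.20), but 80.7% of its exon bases lie under the overlapping gene Gm20427 on the same strand and its level of 8.61 CPM is uncertain. Slc39a5, a zinc importer of the blood-facing side of epithelial cells, had the lowest value of the family, -0.31 (SE 0.20, interval -0.71 to 0.08, adjusted p = 0.656, edgeR's likelihood-ratio test) in the authors' deposited table. Slc39a4, the importer through which the gut takes up zinc, was at -0.11 with an interval of -1.07 to 0.85 at 2.54 CPM. Slc39a2 was at 1.01 (SE 0.46, p = 0.0271, adjusted p = 0.351, edgeR's likelihood-ratio test) at 0.730 CPM, and Slc39a12 at -0.31 at 0.202 CPM in the authors' deposited table.

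**Figure D3:**
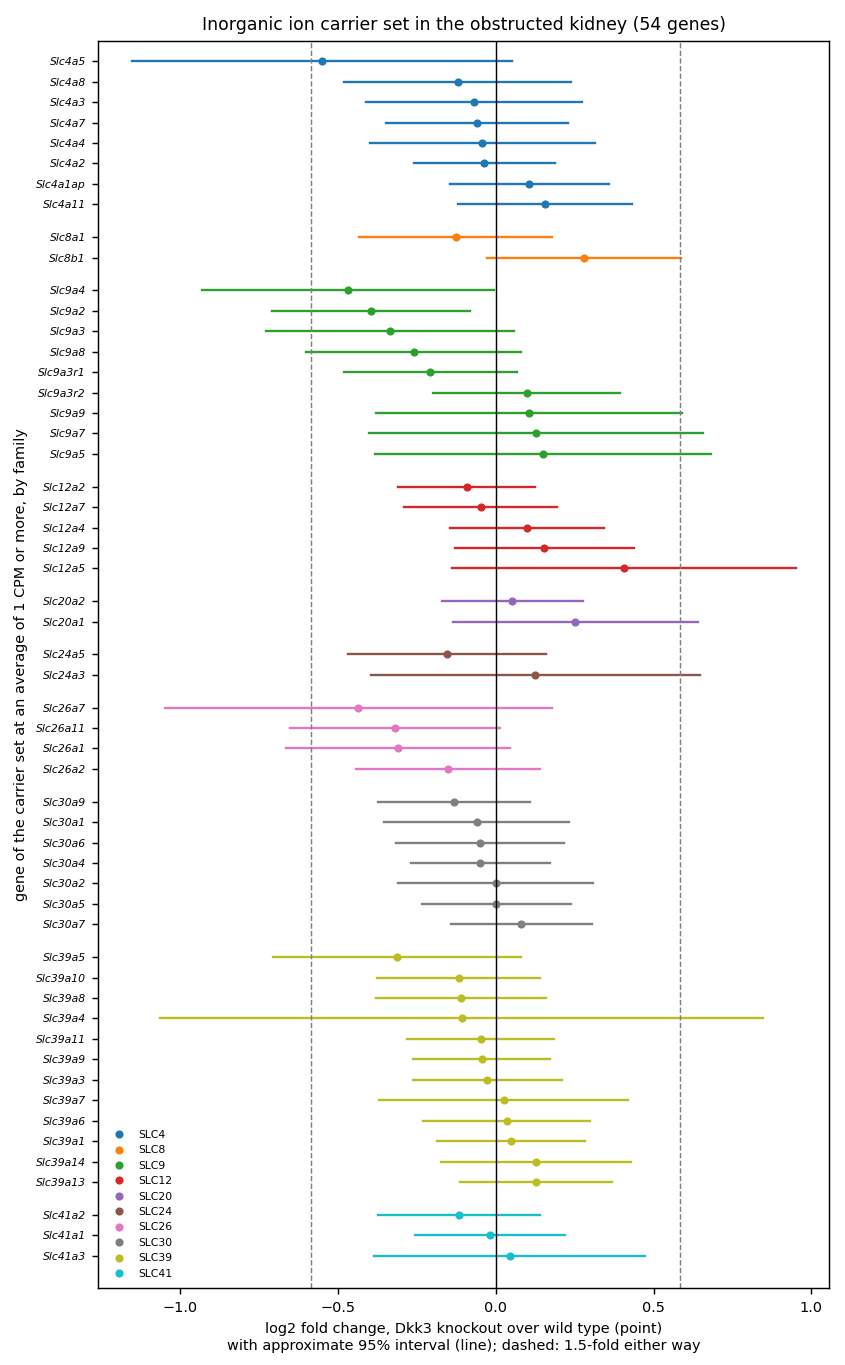
Log2 fold change of knockout over wild type (point) with its approximate 95% interval (line) for 54 of the 57 members at an average of 1 CPM or more (the 3 binding-protein genes included), by family; dashed lines mark 1.5-fold either way. For 37 of the 54 the line stays between the dashed lines, and among these members only the lines of Slc9a2 and Slc9a4 lie wholly to one side of 0. With t quantiles of 14 degrees of freedom the interval of Slc9a4 ran from -0.97 to 0.04 and included 0.

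Among genes at 1 CPM or more, the cytosolic zinc buffers gave values further from 0 than the zinc carriers, without a call. The metallothionein genes Mt2 and Mt1, which bind zinc and copper, stood at 0.47 (SE 0.16, p = 0.00378, adjusted p = 0.113) and 0.38 (SE 0.16, p = 0.0170, adjusted p = 0.274, edgeR's likelihood-ratio test) in the authors' deposited table, at 78.3 and 92.2 CPM. Mtf1, the zinc-sensing transcription factor that induces both metallothioneins and Slc30a1 in the mouse, was at -0.04 (SE 0.11) in the authors' deposited table. Mt3 and Mt4 averaged under 1 CPM. The upstream sequences of Slc30a1 and of both metallothionein genes are shown because these 3 genes are textbook targets of Mtf1 and their values are set side by side. Each is the 250 bases before the RefSeq start site on GRCm38.p6, plus strand, and capitals mark matches to the core of the metal response element, TGCACNC or TGCGCNC, on either strand.

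Slc30a1 (chr1:191906531-191906780): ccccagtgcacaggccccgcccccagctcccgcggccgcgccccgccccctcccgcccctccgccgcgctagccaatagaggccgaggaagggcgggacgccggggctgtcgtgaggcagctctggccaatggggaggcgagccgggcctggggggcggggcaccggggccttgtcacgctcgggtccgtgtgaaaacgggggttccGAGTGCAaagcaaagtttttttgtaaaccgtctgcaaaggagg
Mt1 (chr8:94178839-94179088): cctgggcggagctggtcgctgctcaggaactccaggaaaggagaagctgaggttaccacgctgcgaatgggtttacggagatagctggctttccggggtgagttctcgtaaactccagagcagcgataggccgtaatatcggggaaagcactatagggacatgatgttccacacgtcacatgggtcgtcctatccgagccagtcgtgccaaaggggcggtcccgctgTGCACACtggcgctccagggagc
Mt2 (chr8:94172368-94172617): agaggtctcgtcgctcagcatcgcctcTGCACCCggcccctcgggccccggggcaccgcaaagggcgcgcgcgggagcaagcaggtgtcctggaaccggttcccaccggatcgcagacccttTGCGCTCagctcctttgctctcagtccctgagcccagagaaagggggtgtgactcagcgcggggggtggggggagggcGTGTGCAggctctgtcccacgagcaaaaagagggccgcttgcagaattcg

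The window of Slc30a1 holds 1 match, that of Mt1 1 and that of Mt2 3, none overlapping another. At least 1 match is found in 21.4% of the 32851 promoter windows of the same length, and 3 or more in 1.26%. Bases downstream of each RefSeq start site used were not searched, so the count of 1 for Mt1 covers its window only. The matches describe letters only, and binding was not measured.

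Grouped by the main renal site that textbooks give them, the members were mostly below 0 at each site without a call. Of 7 measured members of the proximal tubule, the scaffold gene Slc9a3r1 among them, 6 were below 0, and the median log2 fold change, which is the value of Slc9a3r1, was -0.21. Of 6 carriers placed in the loop and distal convoluted tubule 5 were below 0, with a median of -0.08. These 6 were Slc9a2, Slc9a4, Slc8a1, Slc4a2, Slc41a1 and Slc41a3. A main site is not an exclusive one, as Slc4a2 is present in most epithelia. Of 6 carriers placed in the collecting duct 5 were below 0, with a median of -0.11. General markers of the same segments, which include all 5 distal carriers outside the rule, stood lower in the authors' deposited table. Of 15 proximal tubule markers 13 were below 0 with a median of -0.41 and 1 called, of 12 loop and distal markers 9 with a median of -0.33 and 2 called, and all 14 collecting duct markers with a median of -0.57 and 8 called. The 2 called loop and distal markers are Calb1, described with the calcium exchangers, and Bsnd. With the F distribution 0 proximal, 0 loop and distal and 2 collecting duct markers were called, and with a minimum fold change of 1.5 the collecting duct markers held 5 calls. Fewer tubule cells and less RNA per cell cannot be told apart in whole kidney. The sodium pump and chloride channel genes taken as partners of these carriers held 1 called gene of 10. The chloride channel subunit gene Bsnd fell by 0.70 on the log2 scale (SE 0.17, adjusted p = 0.00456, edgeR's likelihood-ratio test) in the authors' deposited table. This call also ended with the F distribution.

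**Figure D4:**
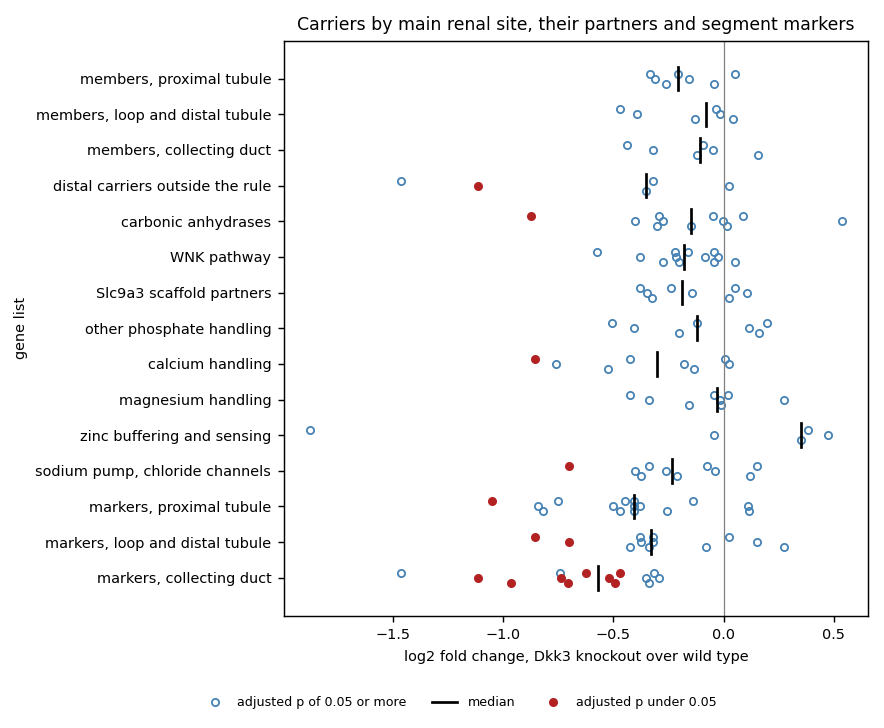
Log2 fold change of knockout over wild type for single genes (circles; filled red where the adjusted p is under 0.05) and the list median (black bar), for members grouped by main renal site, their functional partners and markers of the nephron segments. The members by site have medians of -0.21, -0.08 and -0.11 and no filled circle, and the collecting duct markers a median of -0.57 with 8 filled.

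Markers of other cell types differed between the genotypes too. The kidney origin showed in high levels of Umod (4039 CPM), Slc34a1 (1051 CPM) and Lrp2 (546 CPM), genes of the thick limb and the proximal tubule. All 18 T cell markers were above 0, with a median log2 fold change of 1.46 and 13 called, and 17 macrophage and dendritic cell markers had a median of 0.45 with none called and 10 whose unadjusted p was below 0.05 by edgeR's likelihood-ratio test. All 6 urothelial markers were below 0 with a median of -2.17 and 3 called, and 7 erythroid markers had a median of -0.01 with none called and 1 whose unadjusted p was below 0.05 by edgeR's likelihood-ratio test. With the F distribution 2 T cell and 0 urothelial markers were called, and at an adjusted p below 0.1 there were 2 calls among the macrophage and dendritic cell markers and 5 among the urothelial ones. The part of these cell types in the carriers' values was not tested.

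The authors' own Gene Ontology table, which counts up and down genes per term, listed few or none for the terms closest to these carriers. It listed 1 of 12 genes as down for sulfate transport and 1 of 14 as up for phosphate ion transport in the authors' deposited table. Terms with no gene in either direction were zinc ion transport (27 genes), magnesium ion transport (15), bicarbonate transport (8), sodium:hydrogen antiporter activity (8), cation:chloride symporter activity (7) and calcium:sodium antiporter activity (5) in the authors' deposited table. Of the wider terms, antiporter activity (52 genes) listed none in either direction, and those for inorganic cations and anions listed genes in both. Inorganic cation transmembrane transporter activity listed 14 of 414 genes as down (adjusted p = 0.0123) and 4 as up, and inorganic anion transmembrane transporter activity 5 of 88 as down (adjusted p = 0.144) and 2 as up in the authors' deposited table. How that table called its genes is not given in the sources used here.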

How the data were processed

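Whole kidneys of 3 Dkk3 knockout and 3 wild-type mice, taken 7 days after UUO, were sequenced as single reads of 50 nt in pools of 10 on 3 lanes, per the labels' protocols. The mm10 build and edgeR, without a version, are named per the submitters' processing notes. No source used here names the aligner, the counting or the handling of strand. The authors' deposited log2 fold changes, average log2 CPM values, likelihood-ratio scores and p-values were used as they stand. The authors' deposited Gene Ontology table gives gene counts per term. The planned quasi-likelihood fit needs counts per sample, so the authors' test took its place, as the plan provided. Depth per library is unknown. For all 18421 genes the p-value equalled the chi-square tail probability of the score (1 degree of freedom, relative tolerance 0.0001) and the adjusted p the Benjamini-Hochberg value.

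The standard error was approximated by the size of the log2 fold change divided by the square root of the score. Exon lengths, overlaps and positions came from GENCODE vM21 (GRCm38, the assembly of mm10) by Ensembl identifier, which all 73 members matched. Stretches of 50 nt were compared with all annotated transcripts in both orientations. Promoter windows came from RefSeq on GRCm38.p6, with a window for 57 members. The adjustment and interval steps were tested on simulated statistics. All members entered the counts and medians, and a few members and partners are not reported here by name. The named-gene rule for partner lists was the called genes and the 2 with the smallest p, where reported, and other partners are named for their role or level. The members and lists were chosen with earlier results of these data known. Python 3.11.15, pandas 2.3.3, numpy 2.4.6, scipy 1.17.1 and matplotlib 3.10.9 were used.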

Additional observations from a re-analysis of the deposited data

How the results depend on the processing

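No member was called under any of the 7 alternatives that could be run: an adjusted p below 0.1, a minimum fold change of 1.5, genes at 1 CPM or more, an F distribution (14 denominator degrees of freedom, 4 of them residual and 10 assumed as prior), scores divided by their inflation factor of 1.09, leaving out chromosome 7, and centring on the median of 0.01. The smallest adjusted p of a member ran from 0.142 to 0.384 over these settings. Members at an unadjusted p under 0.05 numbered 5, and from 2 (at 1 CPM or more) to 5 under the alternatives, with 3 at a fold change of at least 1.5. Over all genes 379 calls became 578 at a threshold of 0.1, 242 without chromosome 7 and 81 with the F distribution. With the F distribution 0 carbonic anhydrase, 0 calcium handling and 0 sodium pump and chloride channel genes were called, against 1 each, and at a threshold of 0.1 the distal carriers outside the rule held 2 calls against 1. The median of SLC8 moved from 0.04 to 0.21 without chromosome 7, and that of SLC24 from 0.45 to -0.015 at 1 CPM or more, since both families have 4 members and lose 1 and 2. Other medians moved by less than 0.15, the median standard error of members at 1 CPM or more. Calls over the marker lists were recomputed after seeing the data, and those that moved stand beside their counts. Centring changed the sign of 1 member, Slc30a5. No paired analysis was possible because the tables used here hold no value per sample, and for the same reason DESeq2 size factors and leaving out single mice were not run. The size of the approximate intervals rests on the authors' fit, and 40 of 57 stayed within 1.5-fold with t quantiles of 14 degrees of freedom too.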

Other observations

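The genes next to the exchanger pair Slc9a4 and Slc9a2 on chromosome 1 were looked up after the values of both had been seen, and none was called. On one side of the pair lie receptor genes of the interleukin 1 and 18 family, whose log2 fold changes were above 0 in the authors' deposited table. Il18rap stood at 0.46 (SE 0.23), Il18r1 at 0.27 (SE 0.18), Il1rl1 at 0.66 (SE 0.30), Il1rl2 at 0.27 (SE 0.31) and Il1r1 at 0.07 (SE 0.15) in the authors' deposited table. On the other side Mfsd9, a gene of the major facilitator superfamily that starts 210.6 kb from the start of Slc9a4, was at -0.36 (SE 0.13, p = 0.00712, adjusted p = 0.167, edgeR's likelihood-ratio test) in the authors' deposited table. The next gene beyond it, Tmem182, was at -0.10 (SE 0.50) at 0.514 CPM in the authors' deposited table.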
